A study of Mus musculus with 40 samples.

Results

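The response to a high fat diet (HFD) was compared between aorta and kidney in EC-EGFR mice, using 36 of the 40 libraries of the series, 18 from each tissue. All libraries of both count tables were included except aortas R-1 and R-12 and kidneys a1 and a12, which form 2 near-identical pairs that cross genotype groups (median chi-square over genes 0.0277 and 0.0269, against 1.60 and 1.62 for the next most similar pair of each tissue). The aortas were 4 WT SD, 4 KO SD, 5 WT HFD and 5 KO HFD, and the kidneys 5 WT SD, 5 KO SD, 4 WT HFD and 4 KO HFD, so that 8 SD aortas stood against 10 HFD aortas and 10 SD kidneys against 8 HFD kidneys. SD, the standard diet, supplied 10% of its energy as fat and HFD 60%, fed for 18 weeks from 6 weeks of age. KO mice carried floxed Egfr alleles and Tek-cre, which removes exon 1 of Egfr where the Tie2 promoter is active, in endothelium and also in cells of haematopoietic origin. WT mice carried the same Tek-cre without loxP sites, and the background was C57BL/6J. Sex and the time of day at tissue collection are not given in the sources used here, and nothing in the labels links an aorta with the kidney of the same mouse.

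The kidney is a major site of lipid handling. Its proximal tubule takes up fatty acids and burns them by beta-oxidation, makes glucose, and transports organic anions. The aorta is mostly smooth muscle and matrix under a single layer of endothelium, and the fat around it is rich in adipocytes, which may stay attached in part after dissection. A diet rich in fat supplies fatty acids and cholesterol from outside, which is known to lower the genes of sterol synthesis through the transcription factor SREBP-2 and to act on PPAR-alpha, the fatty acid sensor that drives their oxidation.

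Library totals on genes were 17520161 to 23683293 counts in aortas (median 19503611) and 19643033 to 31369285 in kidneys (median 23794100). Counts are 0 in all libraries for genes on chromosome 8 after 97876154, and on chromosomes 9, MT, X and Y, so 12.1% of protein-coding genes in each table could not be compared. Levels are given as FPM, a gene's TMM-scaled CPM within its tissue; the tissues were scaled separately, so the comparison between them is one of diet effects and not of levels. Smooth muscle markers summed to between 31940 and 47620 FPM in aortas, while Kap, the androgen-regulated marker of proximal tubule, had 11760 to 42510 FPM in kidneys and at most 0.186 FPM in aortas. Whole-tissue Egfr did not separate the genotypes, so it gives no check of their labels. Its level was 40.03 ± 10.3 FPM (mean ± standard deviation, 4 or 5 libraries a group) in WT SD aortas and 45.5 ± 5.50 in KO SD aortas, and 40.65 ± 6.39 in WT HFD and 44.6 ± 6.62 in KO HFD aortas. Kidneys had 56.5 ± 5.80 (WT SD), 53.2 ± 4.34 (KO SD), 41.2 ± 13.01 (WT HFD) and 43.4 ± 11.8 (KO HFD). Some libraries stood apart. Aortas R-11 (KO SD) and R-16 (KO HFD) had summed lymphoid markers of 171.8 and 281.4 FPM, where the next highest in their diet groups had 25.4 and 43.4 FPM. In SD kidneys a8, a9 and a17 the immediate-early genes summed to 2973 to 3208 FPM, against at most 349.2 FPM in any other kidney. Several results that touch these genes are given with and without those libraries.

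HFD changed many genes in kidney and hardly any in aorta. A gene was called when HFD and SD differed with an adjusted p under 0.05 by edgeR's quasi-likelihood test, a fold change over 1.5 and a mean over 5 FPM under at least 1 diet. In kidneys 435 of 16043 genes tested were called (2.71%), 254 higher (1.58%) and 181 lower (1.13%) under HFD. In aortas 1 of 15254 genes was called (0.00656%), Cyp2e1, which was lower. At an unadjusted p under 0.05 the aorta had 622 genes (4.08%), 344 lower (2.26%) and 278 higher (1.82%). With the adjusted p alone, 2416 genes passed in kidney (15.1%) and 1 in aorta. Precision differed by tissue. Between libraries of a group the biological variation of a gene (BCV) came to 28% for aorta and 18.5% for kidney, and the median standard error of the log2 fold change was 0.158 against 0.110. Levels under the diets did not overlap in 508 renal genes (3.17%) and in 2 aortic genes (0.0131%), Siglech and Itih2. Under other settings the aortic count ranged from 0 to 6. The DESeq2 Wald test called 6 genes, Cyp2e1, Cfd, Retn, Car3, Pcx and Cpxm2, all lower under HFD. Of these, Pcx, pyruvate carboxylase, and Cpxm2, a carboxypeptidase-like matrix protein, were named after their values had been seen; their log2 fold changes in the edgeR fit were -0.61 and -0.65 (adjusted p 0.177 and 0.172). In all 40 libraries 4 were called.

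**Figure D1:**
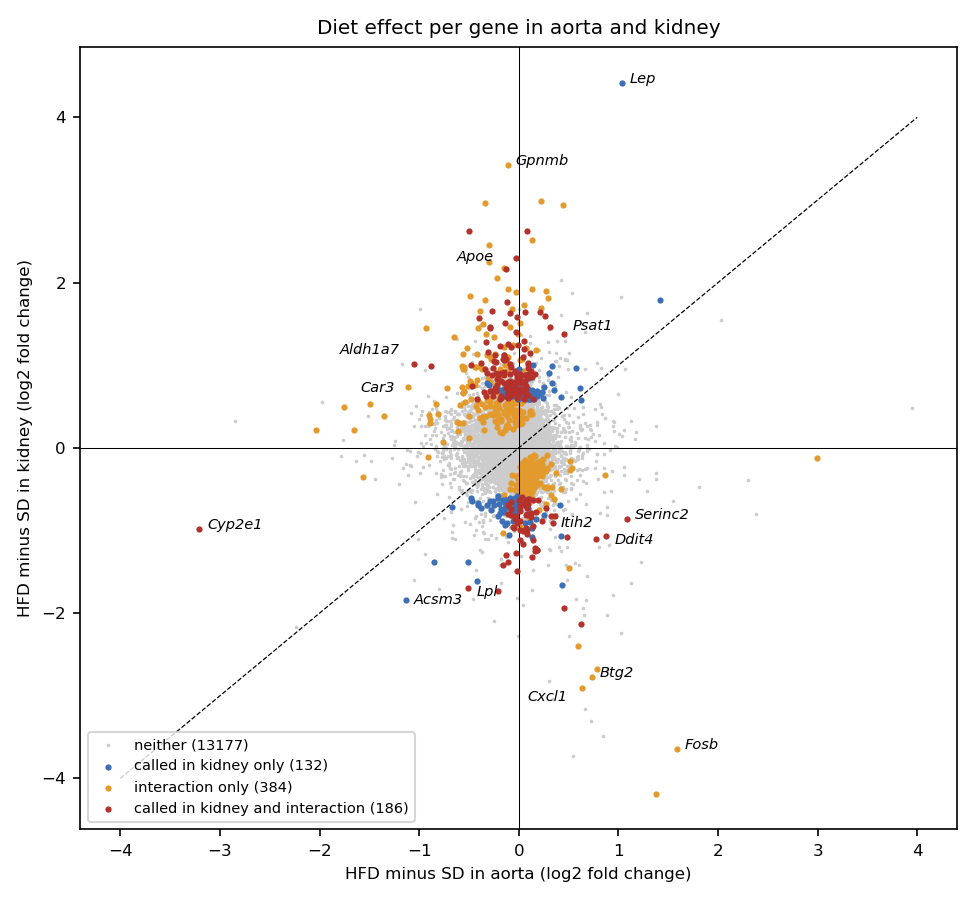
Diet effect of each gene tested in both tissues, as HFD minus SD log2 fold change in aorta (horizontal) and in kidney (vertical); the dashed line marks equal effects. Genes called in kidney spread along the vertical axis with aortic values near 0, Cyp2e1 lies alone at -3.21 in aorta, and the points of Itih2, Serinc2 and Ddit4 fall where aorta is higher and kidney lower.

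Cyp2e1 was the single gene called in both tissues, and it was lower in both. It encodes a cytochrome P450 that oxidises ethanol, acetone and fatty acids and lies at chromosome 7, 140763739 to 140774987 (GRCm38, GENCODE M21). SD aortas held 3.02 to 32.15 FPM of Cyp2e1 (median 12.86), and HFD aortas 0.329 to 3.14 FPM (median 1.33). The highest HFD aorta lay just above the lowest SD aorta, so the diets overlapped narrowly. In kidneys, where it is abundant, Cyp2e1 had 1742 to 2571 FPM under SD (median 1937) and 789.5 to 1172 FPM under HFD (median 1069), with no overlap. The log2 fold change was -3.21 in aorta (SE 0.41, adjusted p = 0.00451) and -0.98 in kidney (SE 0.093, adjusted p = 4.27e-07). The fall was larger in aorta, by 2.24 on the log2 scale in the tissue by diet interaction (SE 0.39, adjusted p = 3.79e-04). Both genotypes showed the aortic direction: means ± standard deviation went from 22.8 ± 9.80 to 1.79 ± 1.03 FPM in WT (4 and 5 libraries) and from 7.49 ± 6.10 to 1.13 ± 0.676 FPM in KO. Fitted alone, neither genotype reached an adjusted p of 0.05 in aorta (0.0932 in WT, 1.00 in KO), and the interaction was lost in KO (adjusted p = 0.211). White adipocyte markers, of which 12 of 15 were below 0 and none passed the adjusted p in aortas, are given below with their values; with the adipocyte score as a covariate the aortic log2 fold change was -2.27 (adjusted p = 0.00724) and the interaction 1.27 (adjusted p = 0.00699).

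The promoter of Cyp2e1 is shown because this gene is the one shared call. It is the RefSeq window from 250 bases before to 50 bases after the start, at chr7:140763569-140763868 on the forward strand (GRCm38.p6), with capitals for the motif TATAAA, whose first base lies 31 bases before the start. The motif was searched on both strands and occurs in 13.6% of 32851 RefSeq promoter windows of this length.
Cyp2e1 promoter: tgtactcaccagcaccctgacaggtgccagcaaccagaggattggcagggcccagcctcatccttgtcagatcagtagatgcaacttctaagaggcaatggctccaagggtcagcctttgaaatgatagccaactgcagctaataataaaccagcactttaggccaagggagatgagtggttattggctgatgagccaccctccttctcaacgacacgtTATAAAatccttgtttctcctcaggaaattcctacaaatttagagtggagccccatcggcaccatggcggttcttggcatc

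A weaker level of agreement was also examined: genes called in kidney with an unadjusted p under 0.05 in aorta. Of the 318 renal calls that were also tested in aorta, 22 met it (6.92%, against 3.80% of all 13879 genes tested in both). This count moved with single libraries, to 35 without aorta R-11 and 34 without aorta R-5, and was 77 in all 40 libraries, 37 with DESeq2, 36 with voom and 11 in WT alone. The direction was shared by 10 of them, 4 higher and 6 lower, and opposite in 12; this split was not recomputed under those settings. Except for Cyp2e1, none had an aortic adjusted p under 0.05.

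The 4 genes higher in both were Psat1, Serpinb8, Mlph and Pip5k1b. Psat1 encodes phosphoserine aminotransferase, a later step of serine synthesis. It had 4.28 to 7.03 FPM in SD aortas (median 5.38) and 5.55 to 10.64 FPM in HFD aortas (median 7.55), a broad overlap. Kidneys went from 21.55 to 43.7 FPM (median 28.4) up to 42.0 to 97.2 FPM (median 75.01), and there only the lowest HFD kidney fell within the SD range. Its log2 fold change was 0.46 in aorta (SE 0.14, unadjusted p = 0.00396) and 1.38 in kidney (SE 0.16, adjusted p = 8.09e-06), and the renal rise was the larger by 0.92 (adjusted p = 0.0087). That difference lost its call with limma voom (adjusted p = 0.0867), with the adipocyte score as a covariate (0.0541), and within WT or KO libraries alone (0.575 and 0.0513). Phgdh, the first enzyme of the same pathway, had a log2 fold change of 1.65 in kidney (adjusted p = 4.72e-09), from 7.58 to 12.64 FPM under SD to 20.09 to 39.7 FPM under HFD. In aorta it was 0.21 (SE 0.14, adjusted p = 1.00), and the interaction was 1.44 (adjusted p = 2.83e-06). For Serpinb8, a serine protease inhibitor, Mlph, a linker of myosin Va to melanosomes, and Pip5k1b, a phosphatidylinositol phosphate kinase, the aortic log2 fold changes were 0.33, 0.42 and 0.30 and the renal ones 0.79, 0.62 and 0.91. Their interactions did not pass the test (adjusted p 0.0884, 0.721 and 0.0722), but those of Serpinb8 and Pip5k1b passed under several alternatives, among them without aortas R-11 and R-16 (0.0178 and 0.0235) and, for Pip5k1b, with the adipocyte covariate (0.0366). The renal change of Mlph was lost in WT alone (adjusted p = 0.064).

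Besides Cyp2e1, the 5 genes lower in both were Lpl, Acsm3, Eci3, Akr1c18 and Kyat3. Lpl encodes lipoprotein lipase, which frees fatty acids from circulating triglycerides. Aortas had 69.7 to 145.4 FPM of Lpl under SD (median 95.1) and 51.1 to 93.5 FPM under HFD (median 68.0), so that the diets overlapped. Kidneys had 741.9 to 1474 FPM under SD (median 1247) and 211.1 to 488.5 FPM under HFD (median 375.3), without overlap. The log2 fold change was -0.51 in aorta (SE 0.14, adjusted p = 0.698) and -1.70 in kidney (SE 0.16, adjusted p = 6.99e-07), a difference of -1.19 (adjusted p = 7.37e-04), which was lost within WT (adjusted p = 0.215). The aortic value of Lpl was -0.26 with the adipocyte score as a covariate, -0.79 in WT alone and -0.22 in KO alone. Acsm3, an acyl-CoA synthetase of medium-chain acids, was rare in aortas, with 0.186 to 1.05 FPM under SD (median 0.773) and 0.0551 to 0.505 FPM under HFD (median 0.307). Kidneys held 490.3 to 865.8 FPM of it under SD (median 631.7) and 113.2 to 240.6 FPM under HFD (median 196.1), again without overlap. Its log2 fold changes, -1.13 in aorta (SE 0.32, adjusted p = 0.713) and -1.84 in kidney (SE 0.14, adjusted p = 4.09e-08), did not differ by the interaction test (-0.71, adjusted p = 0.262). Eci3, an enoyl-CoA isomerase of unsaturated fatty acid oxidation, had nearly equal values in the tissues, -0.67 in aorta and -0.71 in kidney. For Akr1c18, a steroid reductase, they were -0.85 and -1.39 (renal adjusted p 0.0803 in WT and 0.266 in KO alone), and for Kyat3, a kynurenine aminotransferase, -0.25 and -0.64. The interaction of Kyat3 did not pass (adjusted p = 0.0639), but did so in all 40 libraries (0.0328) and with DESeq2 (0.0418), among others.

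**Figure D2:**
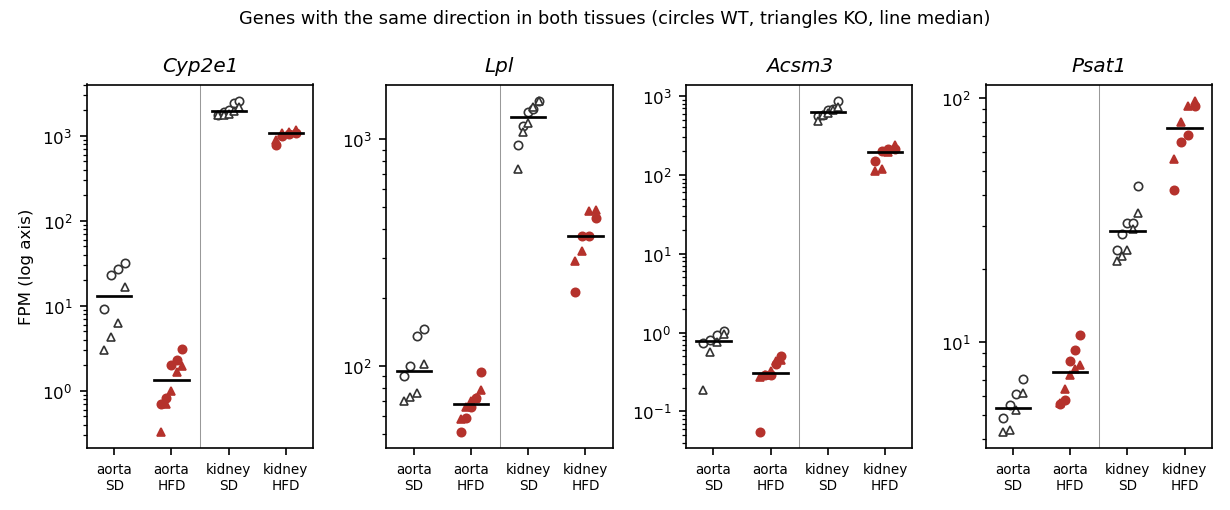
Levels in each library (FPM, log axis) of 4 genes that moved the same way, by tissue and diet; open symbols are SD, filled are HFD, circles WT, triangles KO, and lines are medians. Renal Cyp2e1, Lpl and Acsm3 separate by diet without overlap, while the aortic diets overlap for each gene shown.

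Among the 12 genes of opposite direction were Itih2, Serinc2, Ddit4, Aldh1a7, Gatm, Lyplal1 and Mgl2. Itih2 encodes a heavy chain of the inter-alpha-trypsin inhibitor, which binds hyaluronan in matrix. It was one of the 2 aortic genes whose diets did not overlap, with 63.99 to 77.7 FPM under SD (median 75.1) and 79.7 to 105.7 FPM under HFD (median 90.8). Kidneys showed the reverse, 10.51 to 18.5 FPM under SD (median 14.62) and 4.83 to 9.61 FPM under HFD (median 7.73), likewise without overlap. The log2 fold change was 0.34 in aorta (SE 0.066, adjusted p = 0.177) and -0.91 in kidney (SE 0.13, adjusted p = 7.04e-05). The difference between tissues was -1.25 (SE 0.15, adjusted p = 1.11e-06), and it passed the test under each alternative run. In aorta alone, Itih2 had an adjusted p under 0.05 with DESeq2 (1.95e-04) and in all 40 libraries (0.0328), below the fold needed for a call.

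Serinc2, a membrane protein of a family named for serine incorporation into lipids, had 0.565 to 2.29 FPM in SD aortas (median 1.19) and 1.07 to 4.08 FPM in HFD aortas (median 2.92). In kidneys it went the other way, from 21.3 to 33.5 FPM (median 25.9) to 11.32 to 17.94 FPM (median 14.94), and these ranges did not overlap. Log2 fold changes were 1.09 (SE 0.27, adjusted p = 0.486) and -0.86 (SE 0.096, adjusted p = 3.27e-06), a difference of -1.95 (SE 0.26, adjusted p = 6.60e-06). Ddit4, an inhibitor of mTORC1 induced by stress and glucocorticoids, ranged from 11.23 to 27.0 FPM in SD aortas (median 17.6) and from 14.95 to 67.7 FPM in HFD aortas (median 28.2). SD kidneys had 14.54 to 39.1 FPM (median 23.5) and HFD kidneys 9.60 to 13.25 FPM (median 12.13), all below the lowest SD kidney. The tissue difference for Ddit4 was -1.94 (SE 0.35, adjusted p = 4.98e-04) and -1.57 without kidneys a8, a9 and a17 (adjusted p = 0.00319), and it was lost in WT or KO alone (0.148 and 0.076).

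Aldh1a7 and Gatm were higher in HFD kidneys and lower in HFD aortas. Aldh1a7, an aldehyde dehydrogenase, had 13.47 to 24.2 FPM in SD kidneys (median 16.6) and 26.0 to 45.4 FPM in HFD kidneys (median 35.5), without overlap. Aortas had little of it, 0.451 to 3.11 FPM under SD and 0.117 to 1.29 FPM under HFD, and there the diets overlapped. Its log2 fold changes were 1.01 in kidney (SE 0.12) and -1.05 in aorta (SE 0.38), with an interaction of 2.11 (adjusted p = 1.61e-04; 0.0517 in WT and 0.116 in KO alone). With the adipocyte score as a covariate the aortic value of Aldh1a7 was -0.40 and the interaction 1.36 (adjusted p = 0.0146). Gatm makes guanidinoacetate, the precursor of creatine, in the proximal tubule. SD kidneys had 461.7 to 937.2 FPM of Gatm (median 555.5) and HFD kidneys 909 to 1617 FPM (median 1210), so that only the highest SD kidney reached the HFD range. Aortas had 2.81 to 7.73 FPM under SD and 2.46 to 4.21 FPM under HFD, and the interaction was 1.48 (adjusted p = 1.23e-04; 0.181 in WT alone). Lyplal1, a lysophospholipase-like protein, and Mgl2, a lectin of macrophages and dendritic cells, had the same pattern, with interactions of 1.03 (adjusted p = 6.72e-05) and 1.22 (adjusted p = 0.00249). The first was lost in KO alone (0.0863) and the second in either genotype alone (0.242 and 0.116). The aortic value of Lyplal1, -0.35, was -0.21 with the adipocyte covariate.

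**Figure D3:**
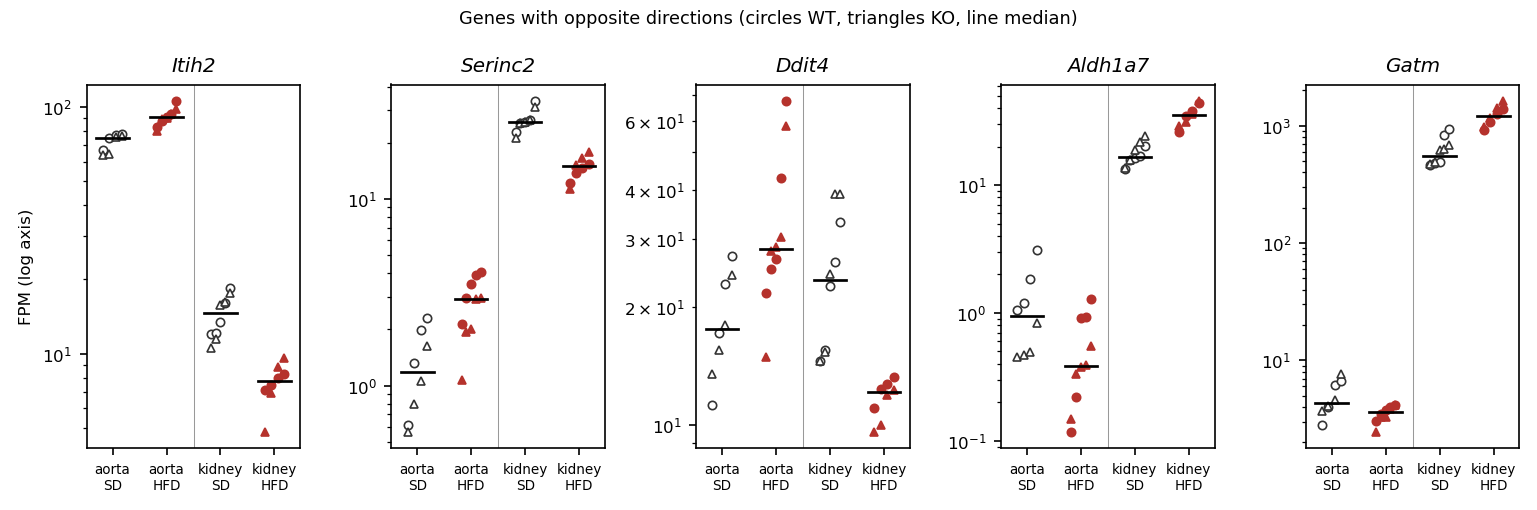
Levels in each library (FPM, log axis) of 5 genes of opposite direction, with symbols as for the genes of the same direction. Itih2, Serinc2 and Ddit4 are higher in HFD aortas and lower in HFD kidneys, and Aldh1a7 and Gatm the reverse.

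Relaxing the renal threshold to an adjusted p under 0.05 without a fold limit gave 1953 of the 13879 shared genes (14.1%), and 103 of these had an unadjusted p under 0.05 in aorta. They divided into 23 higher in both, 25 lower in both, 22 higher in aorta and lower in kidney, and 33 lower in aorta and higher in kidney, so that 55 of the 103 were opposite. Across all 13879 genes the Pearson correlation of the diet effects was -0.0973 and Spearman's rho -0.0902, and across the 9226 genes over 5 FPM in both tissues r was -0.14. Genes are not independent replicates and each tissue's effects come from the same few libraries, so no p is attached.

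The question whether the renal response is absent in aorta or only too imprecise to see was addressed with the aortic confidence intervals. Of the 318 renal calls tested in aorta, 201 (63.2%) had an aortic 95% interval wholly within a 1.5-fold change in either direction, against 71.7% of all genes tested in both, and for 282 the interval excluded the renal estimate, a comparison that leaves out the error of that estimate. The interaction test, which includes it, passed for 186 of the 318 (58.5%) and did not for 132. The 191 genes higher in kidney had a median renal log2 fold change of 0.781 and a median aortic one of -0.0195, with the quartiles of the aortic values between -0.145 and 0.0732. For the 127 genes lower in kidney the medians were -0.791 and -0.0269. Another 117 renal calls, 63 higher and 54 lower, were too low in aorta to be tested.

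Several of the largest renal changes belong to those 117. Gulo, the last enzyme of ascorbate synthesis, had 0 to 0.351 FPM in SD kidneys (median 0.131) and 3.69 to 10.94 FPM in HFD kidneys (median 8.13), a log2 fold change of 5.65 (SE 0.35, adjusted p = 3.13e-09). The highest aorta had 0.100 FPM of Gulo. Gc, the vitamin D binding protein, had 19.05 to 30.4 FPM under SD (median 25.1) and 114.5 to 162.5 FPM under HFD (median 139.3), with a narrow spread in both groups and no overlap (2.47, SE 0.077, adjusted p = 2.27e-14). Mfsd2a, a transporter of lysophosphatidylcholine, fell from 28.6 to 102.4 FPM (median 47.0) to 4.83 to 24.8 FPM (median 8.45), again without overlap (-2.26, SE 0.34, adjusted p = 1.61e-04; 0.0537 in KO alone). Synpr, a synaptic vesicle protein, Igf2bp1, an mRNA-binding protein, and Slc22a7, the organic anion transporter OAT2, fell by 4.97, 1.99 and 1.92; that of Slc22a7 was lost in KO alone (adjusted p = 0.0536). In aortas the medians of these genes were at most 0.212 FPM under either diet.

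The tissue by diet interaction was fitted in the 36 libraries together. It passed an adjusted p of 0.05 for 570 of 13879 genes (4.11%), with the renal change above the aortic one in 318 and below it in 252. The count was 875 with DESeq2, 1123 in all 40 libraries, 856 with the clock score as a covariate, and 1166 with voom, where 571 lay above and 595 below, so the balance of directions turned. Of the 570 genes, 186 were called in kidney and 1 in aorta, and 384 in neither. The change was larger in size in kidney for 523 and in aorta for 47. Within a single genotype, with fewer libraries, 57 genes passed in WT and 56 in KO, and of these 56 and 55 were among the 570.

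Apoe, the apolipoprotein that carries lipid to receptors, is expressed in both tissues, and HFD raised it in kidney alone by the calls made here. Kidneys had 128.6 to 209 FPM of Apoe under SD (median 174.5) and 580.5 to 1045 FPM under HFD (median 753.4). Aortas had 416.5 to 765 FPM (median 628.7) and 393.5 to 916.3 FPM (median 550). The renal ranges were far apart and the aortic ranges nearly the same. Log2 fold changes were 2.16 in kidney (SE 0.11, adjusted p = 1.07e-10) and -0.12 in aorta (SE 0.16, adjusted p = 1.00), a difference of 2.29 (SE 0.20, adjusted p = 1.78e-09).

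Rnase4, a secreted ribonuclease, had the smallest p of all interactions. SD kidneys had 3.64 to 7.96 FPM (median 6.06) and HFD kidneys 17.7 to 23.8 FPM (median 20.3), while aortas had 169.1 to 291.1 FPM (median 243) and 174.2 to 275 FPM (median 218). The log2 fold change was 1.77 in kidney and -0.12 in aorta, a difference of 1.89 (SE 0.15, adjusted p = 5.61e-10). Col8a1, a short-chain collagen of vessels and basement membranes, had 1.14 to 6.10 FPM in SD kidneys (median 3.28) and 8.26 to 26.7 FPM in HFD kidneys (median 14.18). Aortas overlapped widely, with 6.52 to 34.2 FPM and 9.86 to 31.8 FPM, and the interaction was 2.33 (adjusted p = 9.74e-04; 0.236 in WT alone). Agmo, which cleaves ether lipids, and Pla2g5, a secreted phospholipase A2, followed with interactions of 1.93 and 1.74 (adjusted p 2.62e-06 and 0.00206), of which that of Pla2g5 was lost in WT or KO alone (0.255 and 0.117). Prlr, the prolactin receptor, rose by 2.63 in kidney and had under 0.85 FPM in every aorta.

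Of the 8 genes with the largest differences among those over 5 FPM in both tissues and with the renal change below the aortic one, all but Ddit4 lost their calls without kidneys a8, a9 and a17. These were Cxcl1, a neutrophil chemokine, Btg2, an antiproliferative early gene, Arc, Plk3, Hbegf, Mt1 and Cebpb. Cxcl1 had 0.581 to 52.4 FPM in SD kidneys with a median of 1.19, and 0.834 to 2.32 FPM in HFD kidneys with a median of 1.11. Btg2 had 12.06 to 475.4 FPM in SD kidneys (median 16.5) and 16.03 to 20.7 FPM in HFD kidneys (median 17.4), and in aortas 69.3 to 316.4 FPM and 135.6 to 1535 FPM. Medians of the renal diets were nearly equal, and the difference came from high SD kidneys. The interaction was -3.55 for Cxcl1 (adjusted p = 0.0447) and -3.50 for Btg2 (adjusted p = 0.0263). Without the 3 kidneys it was -0.27 (adjusted p = 0.918) and -0.45 (adjusted p = 0.747). Mt1, a metallothionein induced by metals and glucocorticoids, went from -1.88 (adjusted p = 0.0232) to -1.41 (adjusted p = 0.128). The interactions of Arc, Plk3, Hbegf and Cebpb without the 3 kidneys had adjusted p from 0.112 to 0.672. Over all interaction genes, 250 of the 318 above and 178 of the 252 below still passed without these kidneys.

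Promoters of Btg2 and Cxcl1 are shown because both hold a well-known motif of inducible genes, chosen after the results were seen. Capitals mark the cAMP response element TGACGTCA in Btg2 (chr1:134079106-134079405, reverse strand) and the kappa-B sequence in Cxcl1 (chr5:90890995-90891294, forward strand), from RefSeq on GRCm38.p6. On either strand the first occurs in 1.79% and the second in 0.0883% of the 32851 promoter windows, and each in 1 of the 63 named genes with a window. A match is a description of the sequence only.
Btg2 promoter: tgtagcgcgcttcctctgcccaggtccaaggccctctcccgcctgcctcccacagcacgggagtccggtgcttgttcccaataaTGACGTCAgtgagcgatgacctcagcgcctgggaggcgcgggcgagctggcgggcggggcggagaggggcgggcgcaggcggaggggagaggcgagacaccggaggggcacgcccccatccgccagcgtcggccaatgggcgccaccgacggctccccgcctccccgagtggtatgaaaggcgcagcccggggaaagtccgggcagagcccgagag
Cxcl1 promoter: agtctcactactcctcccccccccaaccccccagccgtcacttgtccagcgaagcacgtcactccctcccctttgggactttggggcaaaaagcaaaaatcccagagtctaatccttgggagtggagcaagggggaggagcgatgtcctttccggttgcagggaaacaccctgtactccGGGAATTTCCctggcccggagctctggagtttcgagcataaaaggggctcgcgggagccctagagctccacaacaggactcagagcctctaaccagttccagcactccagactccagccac

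Gene lists were read by their counts and medians, beside the median of all genes tested (0.00332 in aorta and -0.00254 in kidney). In cholesterol synthesis, 5 of 20 members tested in kidney were called lower (1.13% of all renal genes) and none higher, with a median log2 fold change of -0.277 and all 20 below 0. Idi1, the isomerase of isopentenyl diphosphate, had 161.7 to 297.9 FPM in SD kidneys (median 228.8) and 67.6 to 143.6 FPM in HFD kidneys (median 114.6), without overlap. Its log2 fold change was -1.01 in kidney (SE 0.13, adjusted p = 2.87e-05) and 0.04 in aorta (SE 0.19), and the interaction was -1.05 (adjusted p = 0.0076). The interaction of Idi1 was lost with the adipocyte score as a covariate (adjusted p = 0.0596) and in WT or KO alone (0.209 and 0.303). Sqle, squalene epoxidase, also had an interaction past the threshold (-0.70, adjusted p = 0.0201), which was lost without kidneys a8, a9 and a17 (adjusted p = 0.0864), with the adipocyte covariate (0.108) and in WT or KO alone (0.448 and 0.286). Cyp51 did not pass (-0.70, adjusted p = 0.071), but did so without aortas R-11 and R-16 (0.0214), with DESeq2 (0.0366), with voom (0.00643) and with the clock covariate (0.0351), among others. None of the 19 members tested in aorta had an unadjusted p under 0.05 (median -0.0212). Without kidneys a8, a9 and a17, 3 members were called and the renal median was -0.155; in WT alone 2 were called and in KO alone 3. In fatty acid synthesis no member was called; 4 of 14 in aorta had an unadjusted p under 0.05, all lower (2.26% of all genes), among them Fasn, fatty acid synthase, at -0.58. In kidney 5 of 14 had an adjusted p under 0.05, all lower, where 15.1% of all genes passed in either direction.

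PPAR-alpha targets did not move one way in kidney. Of 36 tested, 4 were called higher, among them Cyp4a14, Acot3 and Acaa2, and 2 lower (1.58% and 1.13% of all renal genes), with a median of -0.0266; in WT or KO alone 3 were called, and without kidneys a8, a9 and a17 it was 2 higher and 2 lower. The 2 lower were Ehhadh, the peroxisomal bifunctional enzyme, and Acadm, medium-chain acyl-CoA dehydrogenase. Ehhadh went from 748.2 to 957.8 FPM (median 835.9) to 439.8 to 667.8 FPM (median 544.8), and Acadm from a median of 1379 to one of 911.6 FPM, both without overlap. Aortic values were -0.08 and 0.04, and both interactions passed (-0.57 and -0.63, adjusted p 0.00703 and 2.86e-04), though neither did in WT (0.189 and 0.177) or KO alone (0.388 and 0.102). None of the 30 members tested in aorta had an unadjusted p under 0.05. Among lipid uptake genes, Cd36, the fatty acid translocase, had 565.9 to 747.3 FPM in SD kidneys (median 628.8) and 341.7 to 416 FPM in HFD kidneys (median 398.2), a log2 fold change of -0.70 (SE 0.052, adjusted p = 1.89e-08). In aortas it was -0.09 (SE 0.20), and the interaction did not pass (-0.61, adjusted p = 0.109), though 6 alternatives called it (adjusted p 0.00444 to 0.0465).

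Macrophage markers were higher in HFD kidneys, with 7 of 17 called (1.58% of all renal genes were called higher), 12 past the adjusted p alone (15.1% of all, in either direction) and none lower (median 0.659). The called count was 4 with the adipocyte score as a covariate, 1 in WT alone and 0 in KO alone. Without kidneys a8, a9 and a17 it was 9, with 13 past the adjusted p alone, where 2.81% of all renal genes were called. The called markers were Mrc1, Ctss, C1qb, C1qc, Tyrobp, Lyz2 and Adgre1. Gpnmb, a glycoprotein of lipid-laden macrophages, was below the level needed for a call, with 0.0467 to 0.387 FPM in SD kidneys and 0.120 to 5.13 FPM in HFD kidneys, a log2 fold change of 3.42 (SE 0.53, adjusted p = 1.31e-04). In aortas it had 14.89 to 44.3 FPM and 18.6 to 60.0 FPM (-0.11, SE 0.22), and the interaction was 3.54 (adjusted p = 1.29e-04). No macrophage marker passed in aorta, and the aortic median was -0.00482, or -0.289 without aortas R-11 and R-16. Of complement and acute phase genes, 5 of 10 were called higher in kidney (1.58% of all; median 0.878), C3, C4b, C1ra, C1s1 and Cp, of which 3 were called in WT alone. C3, the central complement component, had 9.65 to 21.3 FPM in SD kidneys (median 13.49) and 22.2 to 55.7 FPM in HFD kidneys (median 45.8), without overlap. Its aortic range under HFD, 249.5 to 594.9 FPM, lay within that under SD, 180.2 to 620.7 FPM. The interaction was 1.60 (adjusted p = 3.79e-04, and 0.0838 in WT and 0.101 in KO alone). Extracellular matrix genes had 4 called higher and 1 lower of 33 in kidney (1.58% and 1.13% of all renal genes; median 0.412) and none in aorta (median 8.27e-04). That renal count of 5 was unstable: it was 1 in WT alone, 2 in KO alone, 2 with the adipocyte covariate, 3 without the filter on low counts, 11 with the immediate-early covariate and 10 without kidneys a8, a9 and a17. Leaving out single kidneys also moved it, to 2 without a14, to 3 without a3, a4, a6, a13 or a16, and to 8 without a17. The lower one, Col5a2, a fibrillar collagen chain, had a log2 fold change of -0.83 in kidney and 0.12 in aorta (interaction -0.96, adjusted p = 0.00156, and 0.462 in WT alone). In these whole tissues, more cells of a type and more RNA per cell cannot be told apart.

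Of 10 genes known for higher levels in male mouse kidney, 7 were called lower under HFD (1.13% of all renal genes were) and 9 were below 0 (median -0.857). They included Slco1a1, an organic anion transporter, at -1.51, Hsd11b1, which regenerates corticosterone, at -1.17, and Kap at -0.74, whose adjusted p in WT alone was 0.0543. Of 8 genes known for higher levels in females, 7 were called higher (1.58% of all), with Gulo, Ugt1a10, Cyp2c69 and Prlr among them, and Akr1c18 lower (1.13% of all); in KO alone 5 were called, all higher. These lists were drawn up knowing that such genes had moved in these kidneys. Only 6 and 2 of their members, respectively, were tested in aorta. Of the 6, 1 was called lower there, Cyp2e1, where 0.00656% of all aortic genes were called. Cyp2e1 and Acsm3 were lower at an unadjusted p under 0.05 (2.26% of all), and the median of the 6 was -0.0445. Of the 2 female-biased members, Akr1c18 was lower at that level. In aortas Hsd11b1 had 15.5 to 51.0 FPM under SD and 21.2 to 58.0 FPM under HFD, nearly the same range, and its interaction was -1.21 (adjusted p = 0.00107; 0.148 in WT and 0.159 in KO alone).

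White adipocyte markers had a median of -0.673 in aorta and 0.524 in kidney, and of the 14 tested in both Car3 alone had an interaction past the threshold. In aortas 6 of 15 had an unadjusted p under 0.05, all lower (against 2.26% of all genes tested). They were Cfd (adipsin, -2.23), Retn (resistin, -1.98), Car3 (-1.49), Adipoq (adiponectin, -1.17), Thrsp and Cidec, and none passed the adjustment. Car3, carbonic anhydrase 3, had 27.6 to 188.8 FPM in SD aortas (median 79.1) and 7.64 to 67.7 FPM in HFD aortas (median 24.8). Kidneys had 9.70 to 74.3 FPM and 37.3 to 87.8 FPM, and the interaction was 2.02 (adjusted p = 0.0135; 0.317 in WT and 0.221 in KO alone). With the adipocyte score as a covariate it was 0.87 (adjusted p = 0.195). The summed level of the 15 markers was 587.9 to 1143 FPM in SD aortas and 561.6 to 776.3 FPM in HFD aortas, and the 4 WT SD aortas, from 791.1 to 1143 FPM, held 4 of the 5 highest sums. In kidneys the sum was similar under the diets, 335.8 to 566.4 FPM under SD (median 409.1) and 349.2 to 549.6 FPM under HFD (median 430.6). Of the 14 markers tested in kidney, 10 were above 0 and 4 below. There 1 passed the adjusted p higher and 1 lower, where 15.1% of all renal genes passed in either direction. Cfd was -2.17 in kidney as well (adjusted p = 0.121). Lep, the leptin gene, was one of 3 markers above 0 in aorta, with 0 to 3.54 FPM under SD and 0.294 to 4.93 FPM under HFD (1.04, SE 0.54). In kidneys it was called higher (4.42, SE 0.93, adjusted p = 0.00378; 0.0551 with voom and 0.123 in WT alone), from 0 to 2.84 FPM up to 0.238 to 48.8 FPM. The part of attached fat in these differences was not tested beyond the covariate.

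**Figure D4:**
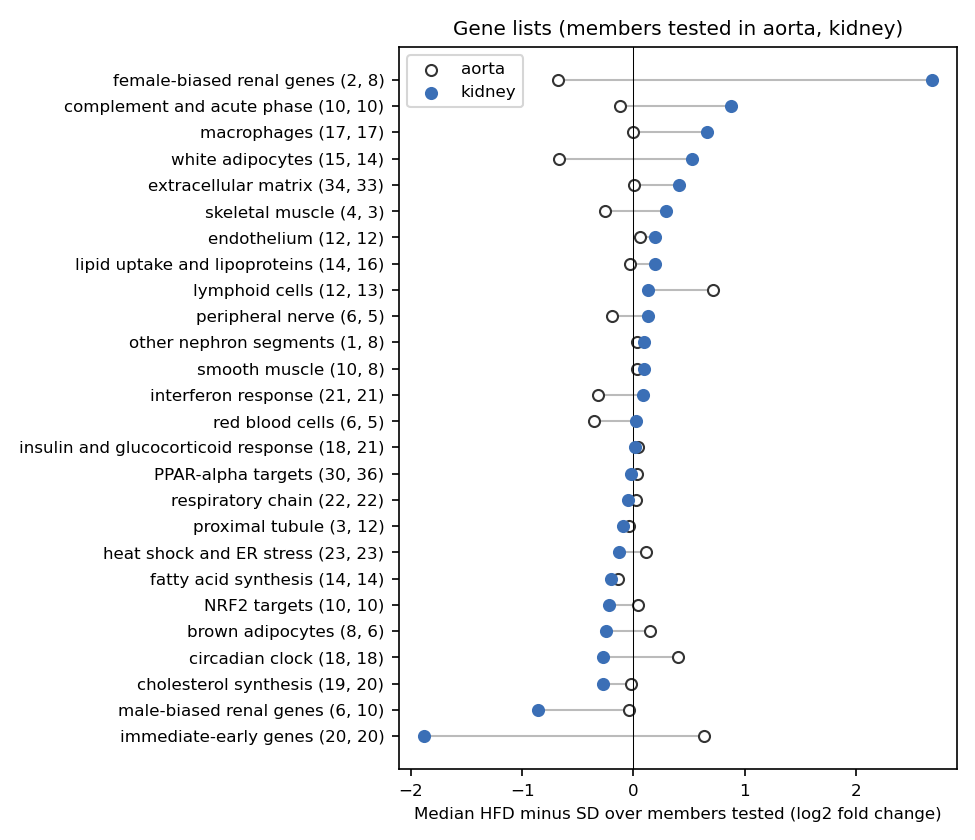
Median HFD minus SD log2 fold change over the members of each list tested, in aorta (open) and kidney (filled), with the numbers tested in brackets. Complement, macrophage and matrix lists lie above 0 in kidney, with aortic medians of -0.124, -0.00482 and 8.27e-04. Without aortas R-11 and R-16 the aortic medians of complement and macrophages are -0.18 and -0.289. The immediate-early and white adipocyte lists have opposite signs in the tissues, the former only with kidneys a8, a9 and a17 included. Summed renal levels of the adipocyte markers were similar under the diets.

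Immediate-early genes, which are switched on within minutes of a stimulus, had a median of -1.88 in kidney and 0.638 in aorta, each over 20 members. In kidneys 16 had an unadjusted p under 0.05 and were lower (15.1% of all renal genes), and 1 was called lower (1.13% of all). Without kidneys a8, a9 and a17 the renal direction turned, with a median of 0.367 and 18 of the 19 members tested above 0. At an unadjusted p under 0.05, 10 of them were then higher and 0 lower. In that setting 1 was called higher and 0 lower, where 2.81% of all renal genes were called. Aortas also varied widely among libraries, from 853.1 to 4623 FPM in sum under SD and from 1586 to 20480 FPM under HFD. Clock genes had medians of 0.401 in aorta and -0.274 in kidney with none called in either; in aorta 3 of 18 were higher at an unadjusted p under 0.05 (1.82% of all). Without aortas R-11 and R-16 the aortic median was 0.509, and 7 of 18 were higher at that level. Without kidneys a8, a9 and a17 the renal median was -0.118. The interferon response genes had medians of -0.322 in aorta and 0.0833 in kidney. These were -0.396 in aorta without R-11 and R-16, and 0.132 in kidney without those 3 kidneys. All 21 interferon genes were below 0 in aorta, 5 of them with an unadjusted p under 0.05 (against 2.26% of all aortic genes lower at that level), and none passed the adjustment. Lists of endothelium, smooth muscle and the respiratory chain had medians from -0.0532 to 0.196 over both tissues. Without kidneys a8, a9 and a17 the renal medians were 0.347 for endothelium, 0.25 for smooth muscle and -0.0791 for the respiratory chain.

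**Figure D5:**
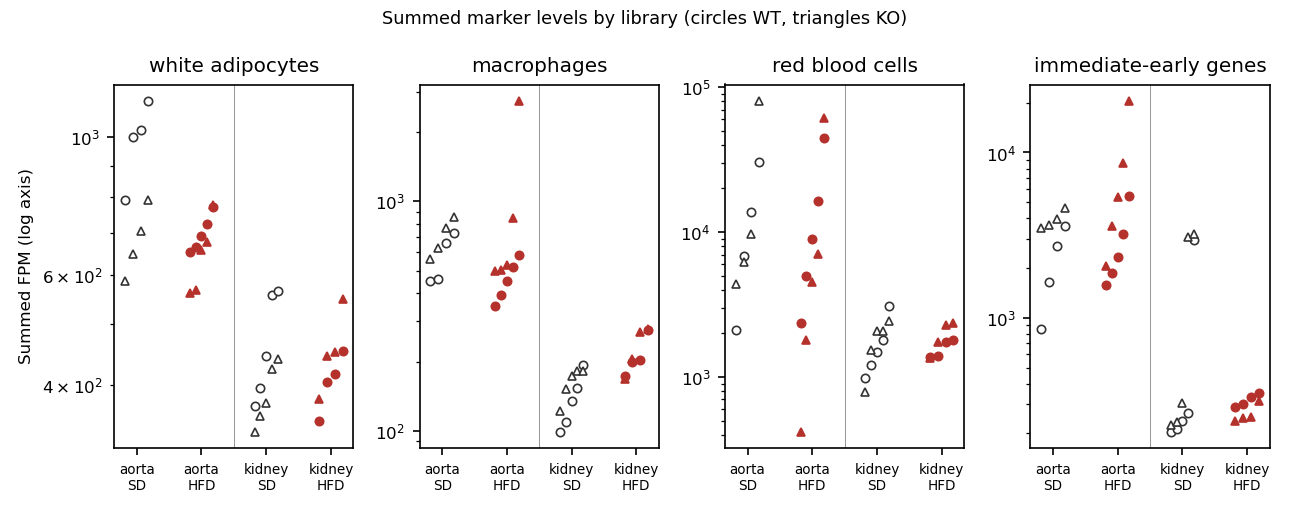
Summed FPM of 4 lists in each library (log axis), by tissue and diet; circles are WT, triangles KO. SD kidneys a8, a9 and a17 lie far above the rest for immediate-early genes, macrophage sums run from 169.1 to 277.3 FPM in HFD and from 99.2 to 194.7 FPM in SD kidneys, and WT SD aortas hold the 3 highest white adipocyte sums.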

How the data were processed

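Polyadenylated RNA of mouse aorta, freed of adjacent fat, and kidney was sequenced in pairs of 150 bases. Reads were mapped to mm10 with HISAT2 2.1.0 per the labels (the methods name another mapper) and counted per gene with featureCounts; the strand setting is not given in the sources used here. The deposited tables hold raw counts per gene, without normalization. FPM and log2 fold changes were computed here.

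Genes passing edgeR 4.0.16's filterByExpr by group were scaled by TMM within each tissue and fitted by robust quasi-likelihood (R 4.3.3), with genotype and diet as terms; p-values were adjusted by Benjamini-Hochberg over all genes tested. The interaction came from a fit of all 36 libraries to genes tested in both tissues, with genotype and diet terms per tissue. SE is the log2 fold change over the square root of F. Replicates are separate libraries by their labels, so p-values measure the spread between these samples. The scripts were tested on simulated data. Genes were named by rule: genes called in both tissues; up to 8 per class (both higher, both lower, opposite) called in 1 tissue with an unadjusted p under 0.05 in the other; the 8 largest changes in each direction among calls with separate diets; the 8 largest interactions in each direction; and called members of lists. The part of this rule on the same or opposite direction, the members and all lists were chosen with earlier results of these data known. Alternatives were DESeq2 1.42.0, limma 3.58.1 voom, other scalings and filters, single genotypes, score covariates and left-out libraries; those without R-11 and R-16, or without a8, a9 and a17, were added after seeing the data. Promoters and gene positions are from RefSeq and GENCODE M21. Some genes that the rule names are not reported here.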

Additional observations from a re-analysis of the deposited data

Results flagged for a closer look

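Within diet groups of 8 or 10 libraries, 142 gap tests (Dixon's, 95%) were made on the genes and marker sums of the text. Of these, 20 found a library apart. Chance alone flags about 1 in 20 of such tests where values are normally distributed. FPM and summed FPM were tested without a log scale, so that rate may not hold here. Aorta R-19 (KO HFD) was highest of the HFD aortas for Cxcl1 (39.2 FPM, next 8.38), Btg2 (1540, next 563), Gpnmb (60, next 35) and the summed immediate-early genes (20500, next 8600). Aorta R-11 (KO SD) was highest of the SD aortas for Cxcl1 (8.57 FPM, next 5.21), Mt1 (268, next 143), summed lymphoid markers (172, next 25.4) and summed red blood cell markers (80300, next 30600). Aorta R-16 (KO HFD) was highest for lymphoid markers (281, next 43.4) and macrophage markers (2740, next 843). In other aortas, Acsm3 was lowest in R-7 (0.0551, next 0.274), Lep highest in R-4 (3.54, next 1.22) and Idi1 highest in R-20 (55, next 35.9).

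Among kidneys, a17 was highest under SD for Cxcl1 (52.4 FPM, next 24.7) and Gpnmb (0.387, next 0.211), and a18 for summed proximal tubule markers (57600, next 43900). Lep was highest in a3 under HFD (48.8, next 16.2) and in a16 under SD (2.84, next 1.41), Cd36 was lowest in a4 under HFD (342, next 387), and brown adipocyte markers were highest in a19 under SD (195, next 112).

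Several genes given above, such as Hsd11b1, Ehhadh and Acadm, passed the interaction test but are not repeated here. The tissue by diet interaction was flagged in this section for 19 genes. As renal minus aortic log2 change, it was positive for Gpnmb (3.54), Col8a1 (2.33), Apoe (2.29), Cyp2e1 (2.24), Aldh1a7 (2.11), Car3 (2.02), Rnase4 (1.89), C3 (1.60), Gatm (1.48), Phgdh (1.44) and Psat1 (0.92). It was negative for Cxcl1 (-3.55), Btg2 (-3.50), Serinc2 (-1.95), Ddit4 (-1.94), Mt1 (-1.88), Itih2 (-1.25), Lpl (-1.19) and Idi1 (-1.05). Without kidneys a8, a9 and a17 those of Cxcl1, Btg2 and Mt1 did not pass.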

How the results depend on the processing

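The aortic count of called genes, 1, was 4 in all 40 libraries, 6 with DESeq2, 2 with limma voom, 2 with the immediate-early score as a covariate, and 0 in WT or in KO alone. Leaving out 1 library gave 1 to 2 (2 without aorta R-11). The renal count, 435, was 2416 with the adjusted p alone and 134 with a fold over 2; other settings gave 312 to 471. The count called in both tissues, 1, was 0 with a fold over 2, and 0 in WT or KO alone. The 22 renal calls with an unadjusted p under 0.05 in aorta became 77 in all 40 libraries, 37 with DESeq2, 36 with voom, 11 in WT alone and 34 without aortas R-11 and R-16; leaving out 1 library gave 19 to 35, the highest without aorta R-11, and 34 without aorta R-5. The 570 interactions became 1123 in all 40 libraries (530 shared), 875 with DESeq2, 1166 with voom (571 above, 595 below), 57 in WT alone, 56 in KO alone and 856 with the clock score as a covariate. Single genotypes hold fewer libraries, and the causes of these shifts were not tested. For single genes and lists, 2779 results under these settings, apart from leaving out 1 library, were counted as unchanged. Another 180 fell below the threshold, 68 rose past it and 42 moved. None that was called changed sign. A gene result that did not pass could change sign and still count as unchanged. The aortic log2 fold change of Cd36, for example, was -0.09, and 0.12 in KO alone. List counts counted as unchanged could also differ, as for renal macrophage markers (7 called, and 9 without kidneys a8, a9 and a17). No paired analysis was possible because no label links an aorta with a kidney, and replicate numbers within a tissue do not recur across its groups. The aorta's median standard error of 0.158, against 0.110 in kidney, limits what could be seen there.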
